A study of Homo sapiens with 8 samples.

Results

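The comparison described here is that of human acute myeloid leukaemia cells labelled as overexpressing OGFOD1 (OE) with cells labelled control, in the light pool of polysome gradients. It rests on 4 of the 8 libraries of the study, chosen by their labels alone: Molm13 OE light and U937 OE light, against Molm13 control light and U937 control light. Each group thus held 2 libraries, 1 per cell line label, and the line label paired them into a Molm13 pair and a U937 pair. Both are established human leukaemia lines: Molm13 carries a KMT2A fusion and a FLT3 internal duplication, and U937 resembles monocytes. Per the labels' protocols, OGFOD1 was delivered to the OE cells by a lentiviral expression vector; the promoter of the vector, what the control cells received and whether either line was a clone are nowhere stated in the labels. All cells, OE and control alike, were exposed to cycloheximide, which holds ribosomes on mRNA, and their lysates were spun through sucrose. The light pool joined the fractions of free ribonucleoproteins, single ribosomes (monosomes) and disomes, and the heavy pool joined the fractions with 3 or more ribosomes. The labels name no separate cultures, so every p-value below measures the spread between these libraries, which may be technical.

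OGFOD1 is an oxygenase that depends on 2-oxoglutarate and iron and hydroxylates a prolyl residue of RPS23, a protein of the small ribosomal subunit that lies at the decoding centre. Loss of such hydroxylation is known to alter translation termination and stress granule formation in a manner that depends on the cell. In a sucrose gradient an mRNA sediments with the ribosomes it carries, so that poorly initiated, stored or short messages are found in the light fractions together with mitochondrial transcripts and free mRNA, and well translated messages are found in the heavy ones. The level of an mRNA in the light pool therefore depends both on how much of it the cell holds and on how much of it is off the polysomes, and the light libraries alone do not separate these. In bulk lysates, fewer cells of a kind and less RNA per cell also cannot be told apart.

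The light libraries held 45942973 (Molm13 OE), 52105186 (U937 OE), 89373133 (Molm13 control) and 57578482 (U937 control) counts, and 30921 to 33915 genes had a count. One of them stood apart. MT-RNR2, the large ribosomal RNA of the mitochondrion, took 12.8% and 11.2% of the counts in the Molm13 and U937 OE light libraries, against 0.646% in the Molm13 control and 11.3% in the U937 control light library. In the 4 heavy libraries it took 0.0622% to 0.243%. Across 12884 genes the Molm13 control light library had Spearman correlations of 0.938 to 0.952 with the heavy libraries and of 0.88 to 0.898 with the other light ones, while the pair of OE light libraries correlated at 0.973. The library labelled Molm13 control light was thus closer in composition to the heavy pools than to its own, and the main results below are given with it and without it.

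**Figure D1:**
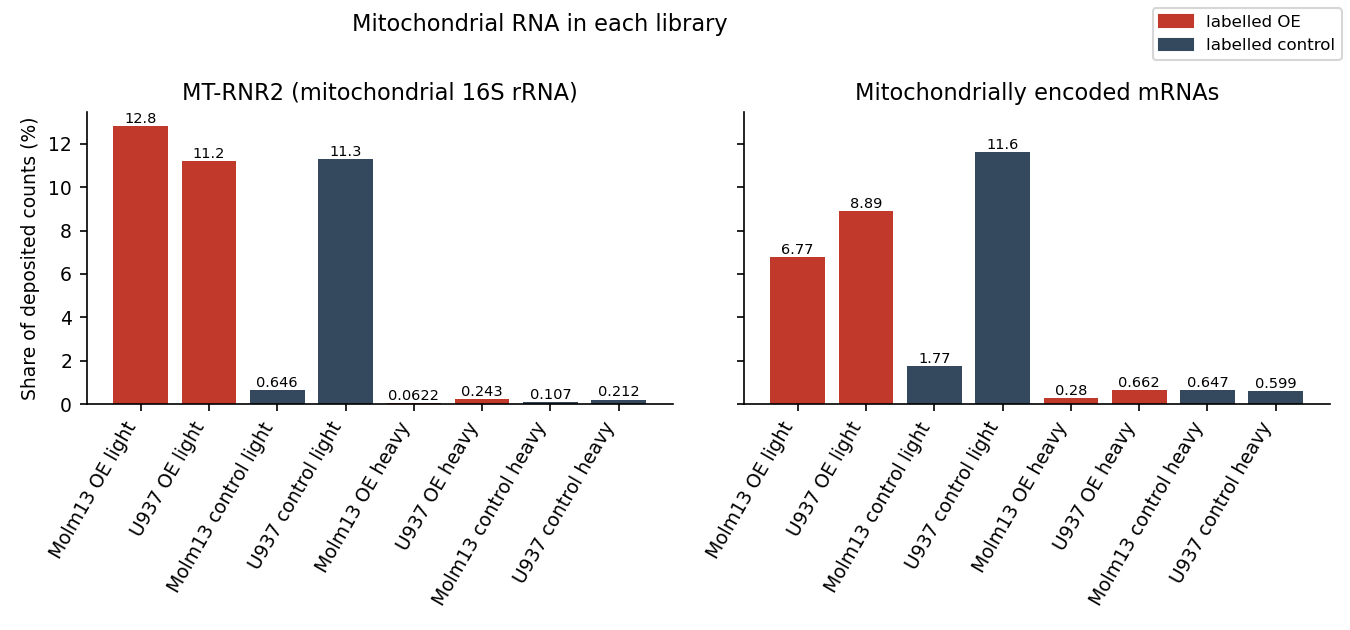
Share of deposited counts (percent, vertical axis) taken by MT-RNR2 (left) and by the 13 mitochondrially encoded mRNAs (right) in each of the 8 libraries, OE libraries in red and control libraries in blue; each bar is 1 library. Among the light libraries, MT-RNR2 took 12.8% and 11.2% in OE and 0.646% and 11.3% in control.

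OGFOD1 itself was lower in the libraries labelled OE. Its level, given as counts scaled to library size (CPM, with TMM factors), was 17.1 and 10.2 CPM in the OE libraries, against 32.4 and 48.6 CPM in the control libraries; here and below the Molm13 library comes first and the U937 library second. Both OE libraries lay below both control libraries. The gene (chromosome 16, 56451490 to 56479100, plus strand, GRCh38) had 801 and 507 reads in the OE libraries and 3116 and 2670 reads in the control libraries, so counting error is small beside these differences. The difference on the log2 scale was -0.92 in the Molm13 pair and -2.25 in the U937 pair, and the fit across all genes gave -1.59 ± 0.52 (SE), adjusted p = 0.194, which did not pass the threshold of 0.05. In a 3-library fit without the Molm13 control library the value was -1.84 ± 0.30 (SE), adjusted p = 4.35e-05. The level of the gene thus went against the label OE, and every direction below is that of the libraries labelled OE. Fold changes below are on the log2 scale. RPS23, the substrate of OGFOD1, was at 2062 and 3258 CPM in the OE libraries, against 1281 and 1874 CPM in the control libraries and did not pass the test (0.74 ± 0.57 (SE), adjusted p = 0.77), nor did it in the 3-library fit (0.51 ± 0.37 (SE), adjusted p = 0.454); its gene overlaps ATG10.

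The line labels separated the libraries little. Among 9299 genes at a mean of 10 CPM or more over all 8 libraries, 6 were at least 1 log2 unit higher and 0 were at least 1 lower in Molm13 than in U937 libraries in all 4 matched comparisons, against 15 higher and 29 lower for OE over control and 189 higher and 229 lower for heavy over light. Myeloid markers were present in the light libraries: all 12 reached 1 CPM in 3 of them and 11 in U937 control light, with summed levels of 5530 and 3780 CPM in OE and 8600 and 4250 CPM in control libraries. Erythroid and megakaryocyte markers were near 0, with summed levels of 0.249 to 0.457 CPM over 14 genes. Markers of T and NK cells summed to 190 and 207 CPM in OE and 380 and 71.7 CPM in control light libraries, almost all from CD3D, TRAC and NKG7, while CD2 had no count in any of them and CD3E and LCK were at or under 0.0384 CPM. Their part in the results was not tested.

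Of 22343 genes tested across the 4 libraries, 20 passed an adjusted p of 0.05 as higher in OE (0.0895% of the genes tested) and 4 as lower (0.0179%), by edgeR's quasi-likelihood test with the line label as a term. At an unadjusted p under 0.05 there were 2075. This fit has 1 residual degree of freedom and gave all genes of like abundance the same spread, so a call mostly reflects the size of the difference. Of the 24 genes, 22 differed by at least 1 log2 unit in both pairs, 15 had a mean under 10 CPM, and 19 differed more in the U937 pair than in the Molm13 pair. In the heavy pools 23 of them had a fold change of the same sign. The count rests on the model and on the libraries used: 0 genes passed without the line term (2065 at an unadjusted p under 0.05), and 63 passed with DESeq2. With all 8 libraries in the fit 0 passed, and that is the count to set the next ones against. In a fit of all other libraries of the study, leaving out Molm13 OE light gave 8, leaving out U937 OE light gave 0, leaving out Molm13 control light gave 854, and leaving out U937 control light gave 1926.

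The most abundant named gene that rose was BTG2, an antiproliferative adaptor of the CCR4-NOT deadenylase that is induced by p53 and by growth arrest. It stood at 67.8 and 112 CPM in the OE libraries, against 22.2 and 8.54 CPM in the control libraries. Both OE libraries were well above either control library. The fitted difference was 2.65 ± 0.56 (SE), adjusted p = 0.00919. YPEL3, a small protein linked to cellular senescence, had 20.8 and 35.2 CPM in the OE libraries and 7.9 and 3.88 CPM in the control libraries. Its log2 fold change was 2.28 ± 0.54 (SE), adjusted p = 0.0333. The divergent transcript next to BTG2, BTG2-DT, rose by 2.95 on the same log2 scale. JUN, an AP-1 transcription factor, was low throughout, at 9.14 and 11.2 CPM in the OE libraries, against 2.91 and 1.15 CPM in the control libraries, and rose by 2.45 on the log2 scale.

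LPAR6, a receptor for lysophosphatidic acid, was at 31.4 and 55 CPM in the OE libraries, against 7.87 and 11.2 CPM in the control libraries (2.15 ± 0.52 (SE), adjusted p = 0.0341). CYBRD1, a ferric reductase of the plasma membrane, had 8.03 and 13.7 CPM in the OE libraries and 1.06 and 2.59 CPM in the control libraries (2.66 ± 0.56 (SE), adjusted p = 0.00919). For both, the pairs gave differences of like size: 1.99 in the Molm13 pair and 2.29 in the U937 pair for LPAR6, and 2.88 in the Molm13 pair and 2.39 in the U937 pair for CYBRD1. SLC6A8, the creatine transporter, had 34.8 and 44.5 CPM in the OE libraries, against 21.1 and 1 CPM in the control libraries. Its log2 fold change of 3.03 thus came mostly from the U937 pair (0.72 in the Molm13 pair and 5.43 in the U937 pair). TMEM158, a membrane protein first found as induced by RAS, showed the same arrangement with 21.8 and 35.9 CPM in the OE libraries and 12 and 1.64 CPM in the control libraries. So did RGS1, an inhibitor of G protein signalling in leukocytes, at 63.9 and 48.2 CPM in the OE libraries, against 29.9 and 3.42 CPM in the control libraries. RIOK3, an atypical kinase that binds the small ribosomal subunit, stood at 74.2 and 72.9 CPM in the OE libraries and 23.3 and 12.3 CPM in the control libraries (2.12 ± 0.52 (SE), adjusted p = 0.0453), with all 4 values well measured.

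Most of the other genes that rose were of low level. NFILZ had the smallest adjusted p, 0.000287, at 4.91 and 3.02 CPM in the OE libraries, against 0.364 and 0.109 CPM in the control libraries. CREB5, a CRE-binding transcription factor, had 2.24 and 1.91 CPM in the OE libraries and 0.156 and 0.237 CPM in the control libraries. DNAJC5B, of the cysteine string protein family, was better measured at 19.1 and 16.1 CPM in the OE libraries, against 4.29 and 2.08 CPM in the control libraries (2.55 ± 0.54 (SE), adjusted p = 0.00919). NECAB1 and C8orf88 overlap only at their ends, and reads from that stretch cannot be told apart. The remaining genes that rose were ZMIZ1-AS1, an antisense RNA whose reads cannot be told from those of its partner where strand was not used, and the unnamed ENSG00000234132, ENSG00000310415, ENSG00000231881 and ENSG00000295940. Of these, ENSG00000310415 was the most abundant, at 62.6 and 190.3 CPM in the OE libraries and 10.7 and 29.1 CPM in the control libraries.

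The 4 genes that fell were DYNC1I1, PTPRN2, S100A8 and the unnamed ENSG00000285254. DYNC1I1, an intermediate chain of cytoplasmic dynein, had 2.67 and 1.21 CPM in the OE libraries, against 12.8 and 11.9 CPM in the control libraries. Its log2 fold change was -2.77 ± 0.57 (SE), adjusted p = 0.00919. S100A8, a calcium-binding protein of neutrophils and monocytes, had 4.61 and 1.01 CPM in the OE libraries, against 21.2 and 4.84 CPM in the control libraries (-2.23 ± 0.55 (SE), adjusted p = 0.0444). PTPRN2, a receptor-type phosphatase of secretory granules, had 3.71 and 0.785 CPM in the OE libraries, against 19.5 and 3.82 CPM in the control libraries (-2.34 ± 0.56 (SE), adjusted p = 0.0333). For S100A8 and PTPRN2 the Molm13 OE level was close to the U937 control level, and the groups were separated mainly within each line label. Leaving out the Molm13 control library, both calls ended: S100A8 gave -0.80 ± 0.50 (SE), adjusted p = 0.359, and PTPRN2 gave -0.78 ± 0.54 (SE), adjusted p = 0.415. All 24 called genes kept their sign without that library. That fit reuses libraries that made the calls, so it is no separate check of them.

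**Figure D2:**
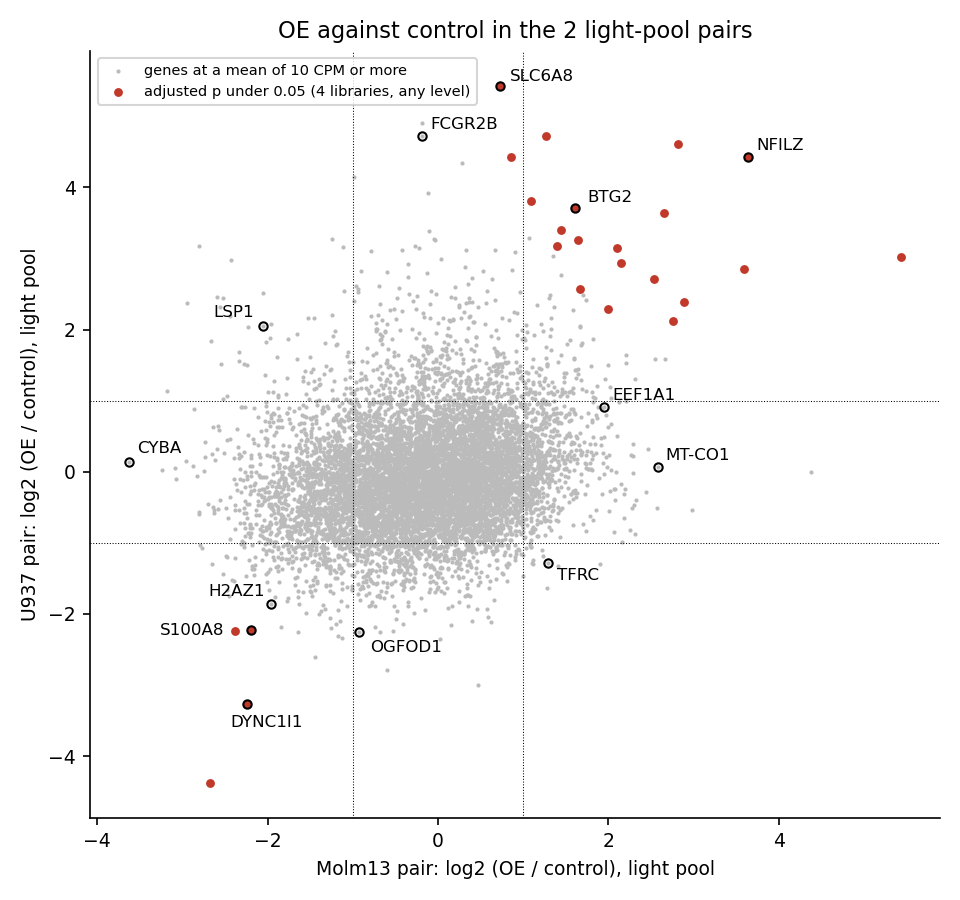
Log2 ratio of OE to control in the Molm13 pair (horizontal) and the U937 pair (vertical), light pool; grey points are genes at a mean of 10 CPM or more, red points are the 24 genes past an adjusted p of 0.05 at any level, and dotted lines mark 1 log2 unit. The cloud is broad along both axes with a Pearson correlation of 0.208 across 9044 genes, and the red points lie where both pairs differ in the same direction.

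A rule of size that needs no variance estimate was used beside the test. At a mean of 10 CPM or more, 9044 genes were measured, of which 122 were at least 1 log2 unit higher in OE in both pairs (1.35%) and 234 were at least 1 lower in both (2.59%). The excess of lower genes depended on the scaling: upper-quartile scaling gave 163 higher and 164 lower, and scaling on protein-coding nuclear genes gave 185 higher and 193 lower. Protein-coding genes with the largest smaller difference are named here, whether or not they passed the test. ARRDC3, an arrestin-domain protein that brings receptors to degradation, was at 42.9 and 51.5 CPM in the OE libraries, against 12.1 and 14.1 CPM in the control libraries, or 1.82 in the Molm13 pair and 1.87 in the U937 pair. IFNGR2, a chain of the interferon gamma receptor, had 252 and 278 CPM in the OE libraries and 77.8 and 79.1 CPM in the control libraries. In both genes the values within a group differed by little and the groups lay far apart, yet the adjusted p was 0.103 and 0.174. The biological coefficient of variation shared by the genes was 0.43. KCTD1, a BTB-domain repressor, had 14.8 and 22.1 CPM in the OE libraries, against 4.41 and 4.1 CPM in the control libraries. TP53I11, a p53-induced gene, had 15.2 and 18 CPM in the OE libraries, against 4.67 and 3.19 CPM in the control libraries. TRIQK, IDS (iduronate 2-sulfatase) and CCDC92 had log2 fold changes of 1.93, 1.60 and 1.94. IDS and CCDC92 overlap other counted genes and may share reads with them. Without the Molm13 control library their log2 fold changes ran from 1.31 (IDS) to 2.38 (TP53I11). These genes were chosen for being higher in both pairs, so that is no separate check of them.

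Among genes lower in both pairs, H2AZ1, a replacement histone H2A that peaks in dividing cells, stood at 254 and 198 CPM in the OE libraries, against 988 and 718 CPM in the control libraries. STMN1, a microtubule-destabilising protein of proliferating cells, had 250.4 and 212 CPM in the OE libraries and 945 and 721 CPM in the control libraries. In both genes the OE libraries lay far below either control library. The next genes showed the same arrangement. TIMM23, the channel of the inner-membrane protein import machinery, had 42 and 35.1 CPM in the OE libraries, against 144 and 124 CPM in the control libraries. ATAD3A, a mitochondrial membrane ATPase, had 5.96 and 5.66 CPM in the OE libraries and 20.3 and 19.4 CPM in the control libraries. EBNA1BP2, a factor of large ribosomal subunit assembly, was at 22.4 and 20.8 CPM in the OE libraries, against 123 and 69.9 CPM in the control libraries. Its groups did not overlap. GAL, the precursor of the peptide galanin, had 46 and 29.2 CPM in the OE libraries and 144 and 139.5 CPM in the control libraries. CMSS1 had 39.5 and 32.4 CPM in the OE libraries, against 124 and 104 CPM in the control libraries. PRPF19, a ubiquitin ligase of the spliceosome, had 8.54 and 7.09 CPM in the OE libraries and 26.6 and 25.7 CPM in the control libraries. The log2 fold changes of these 8 genes ran from -2.10 (EBNA1BP2) to -1.66 (CMSS1), and their adjusted p from 0.0555 to 0.179. HNRNPAB (-2.02), HSPE1 (-1.82), NME1 (-2.07) and GINS2 (-1.64) also belong here but overlap other counted genes. None of the 12 passed with all 4 libraries. They were chosen for being lower in both pairs, so a fit against U937 control alone is no separate check of them.

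Genes that release 29 of GENCODE does not class as protein-coding gave a similar picture on few genes. ENSG00000310385 had 472 and 802 CPM in the OE libraries, against 74.4 and 266 CPM in the control libraries. PCBP2-OT1 had 38.1 and 66.2 CPM in the OE libraries and 12 and 16.1 CPM in the control libraries, but it lies within PCBP2 and its reads cannot be told from those of that gene. On the lower side stood SNRPGP10 (-1.71) and SNRPGP2 (-1.72), processed copies of the spliceosomal gene SNRPG, which itself had 412 and 342 CPM in the OE libraries, against 1139 and 1032 CPM in the control libraries; reads of the copies may come from SNRPG. ACAD9-DT had 6.15 and 4.47 CPM in the OE libraries, against 33 and 12.9 CPM in the control libraries. ELFN1-AS1 had 7.34 and 3.24 CPM in the OE libraries and 23.1 and 9.14 CPM in the control libraries. Without the Molm13 control library ELFN1-AS1 gave -0.80 ± 0.39 (SE). The noncoding genes named were likewise chosen for differing in both pairs, so that fit is no separate check of them.

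**Figure D3:**
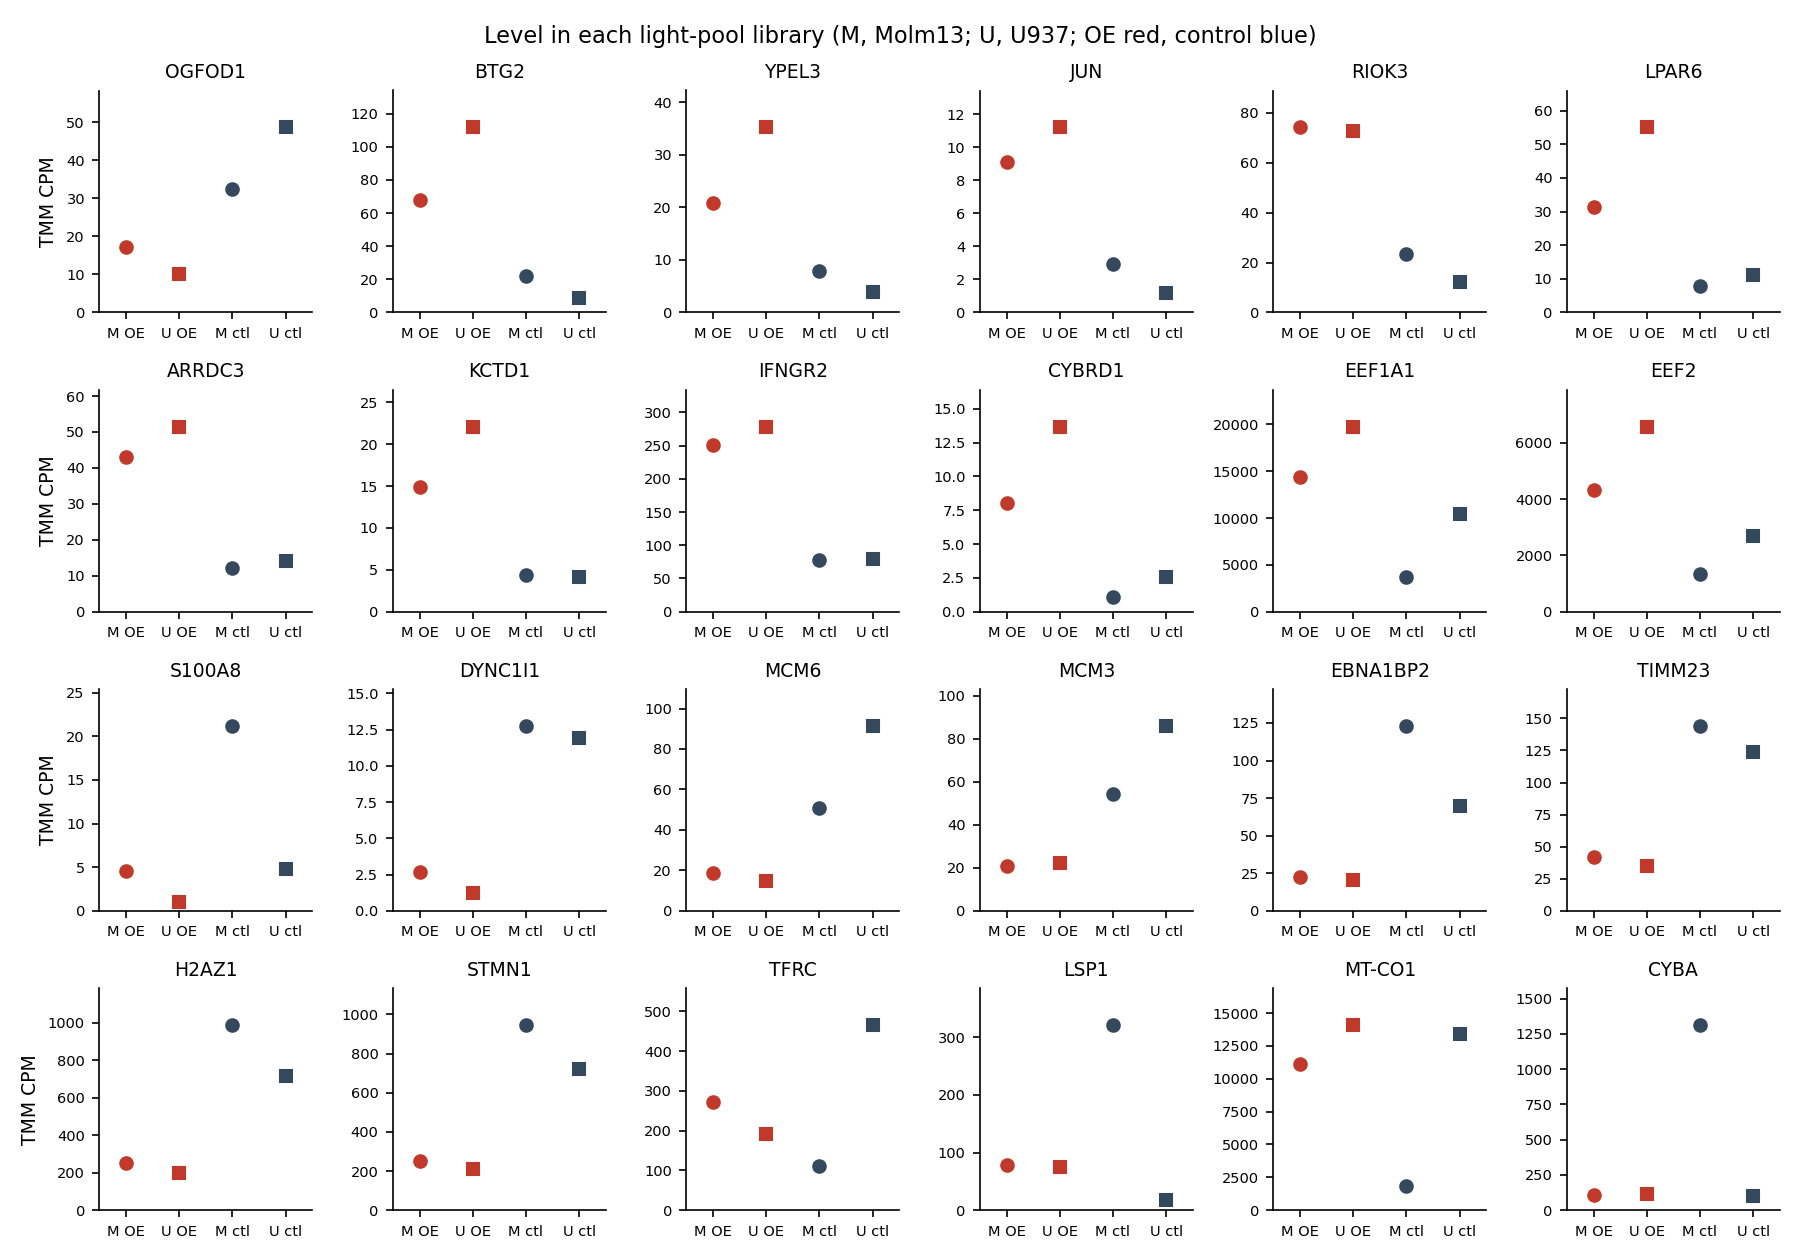
Level (TMM CPM, vertical axes, each from 0) of 24 genes in the 4 light libraries; the OE libraries are red and stand left of the control libraries in blue, circles mark Molm13 (M) and squares U937 (U). From OGFOD1 to STMN1 the groups do not overlap, whereas for TFRC, LSP1, MT-CO1 and CYBA the control libraries stand far apart from each other.

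Genes of DNA replication were lower as a group in both pairs. None of the 52 measured members passed the test with 4 libraries; 42 had a negative fold change, and of the 46 at 10 CPM or more, 32 had both OE libraries below both control libraries, against 29.6% of all genes at that level, while 14 met the rule of size, against 2.59%. The median log2 difference was -0.77 in the Molm13 pair and -0.986 in the U937 pair, beside 0.000261 and about 0 over all genes tested. Over all genes at 10 CPM or more the medians were -0.126 in the Molm13 pair and -0.121 in the U937 pair. MCM6, a subunit of the replicative helicase, had 18.6 and 15 CPM in the OE libraries, against 50.7 and 91.4 CPM in the control libraries. MCM3, of the same ring, had 20.9 and 22.1 CPM in the OE libraries and 54.2 and 85.9 CPM in the control libraries. For both, the U937 pair gave the larger difference: -1.45 in the Molm13 pair and -2.60 in the U937 pair for MCM6 and -1.38 in the Molm13 pair and -1.96 in the U937 pair for MCM3. MCM10, which helps to start the helicase, had 6.32 and 4.95 CPM in the OE libraries, against 14.3 and 24.7 CPM in the control libraries. CLSPN, an adaptor of the replication checkpoint, had 9.46 and 5.42 CPM in the OE libraries and 21.1 and 23.2 CPM in the control libraries. In each of these 4 genes both OE libraries lay below both control libraries. UNG, the DNA glycosylase that removes uracil, had 11.2 and 5.03 CPM in the OE libraries, against 26.8 and 23.2 CPM in the control libraries. Not all members were lower. ORC1, a subunit of the origin recognition complex, had 32.4 and 49.1 CPM in the OE libraries, against 12.7 and 23.1 CPM in the control libraries. CDT1 had 89.8 and 134 CPM in the OE libraries and 47.5 and 71.6 CPM in the control libraries. The log2 fold changes of ORC1 and CDT1, 1.22 and 0.91, did not pass. Against U937 control alone 24 of the 52 fell and 0 rose, among all genes 4.65% and 5.55%; MCM6 then gave -2.45 ± 0.28 (SE), adjusted p = 8.75e-08.

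Promoters of replication genes are known targets of E2F factors, and the windows below are shown for MCM6, the member with the smallest p, and for MCM3, of the same helicase ring. They come from RefSeq (GRCh38.p14) and lie before the annotated start, 5' to 3' on the gene's strand; capitals mark matches to TTT, 2 bases each C or G, then CGC, on either strand, and overlapping matches run together. MCM6 holds 4 matches in chr2:135876502-135876615 on the minus strand, and MCM3 holds 1 in chr6:52284889-52284936 on the minus strand.
MCM6: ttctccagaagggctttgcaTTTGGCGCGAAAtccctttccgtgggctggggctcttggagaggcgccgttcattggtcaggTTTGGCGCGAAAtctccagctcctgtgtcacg
MCM3: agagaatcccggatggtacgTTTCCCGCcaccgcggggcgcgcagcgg

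Of the 45 replication genes with a promoter in that table, 13 (28.9%) held the motif in the 250 bases before the start, against 2.79% of all 27305 promoters. The share was 5.56% for 36 mitosis genes and 7.69% for 65 genes of ribosome biogenesis. A match of these letters describes the sequence and is not a measured site.

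Ribosome assembly genes had like medians in both pairs, though single members differed between the pairs. Of 76 measured members of ribosome biogenesis 65 had a negative fold change and 0 passed; of 72 at 10 CPM or more, 50 had both OE libraries below both control libraries, beside 29.6% of all genes, and 9 met the rule of size, beside 2.59%. Their median difference was -0.71 in the Molm13 pair and -0.753 in the U937 pair. GAR1, of the H/ACA particles that guide pseudouridylation, had 10.3 and 9.84 CPM in the OE libraries, against 28.8 and 33.2 CPM in the control libraries. LYAR, a nucleolar factor, had 11.6 and 8.9 CPM in the OE libraries and 32.6 and 28.7 CPM in the control libraries. MRTO4, which assembles the ribosomal stalk, had 37.4 and 35.5 CPM in the OE libraries and 110.1 and 88.5 CPM in the control libraries. All 3 were lower by like amounts in the 2 pairs. GRWD1 (-2.06 and -0.84) and NOP16 (-2.07 and -1.25) were lower by more in the Molm13 pair, given first, than in the U937 pair. NMD3, the adaptor that exports the large subunit from the nucleus, ran the other way at 54.4 and 95.4 CPM in the OE libraries, against 22.5 and 49.3 CPM in the control libraries. With the Molm13 control library left out, 31 of 76 fell and 1 rose, beside 4.65% and 5.55% of all genes.

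Splicing factors were lower too: 47 of 53 members had a negative fold change, and the medians were -0.834 in the Molm13 pair and -0.667 in the U937 pair. SNRPF, a core protein of the spliceosomal particles, had 129 and 129 CPM in the OE libraries, against 496 and 297 CPM in the control libraries. SNRPG, of the same ring, was given above. None of the 53 passed with 4 libraries, and 16 fell without the Molm13 control library, beside 4.65% of all genes. Mitosis genes showed smaller differences, with medians of -0.37 in the Molm13 pair and -0.432 in the U937 pair. Of 43 members 36 had a negative fold change, beside 10966 of all 22343 genes tested, and none passed. Without that library their median was -0.507, beside 0.0573 over all genes.

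Nuclear genes for mitochondrial proteins and the proteasome were lower in both pairs, with the larger difference in the Molm13 pair. Mitochondrial ribosomal proteins had a negative fold change in 72 of 77 members, with medians of -1.26 in the Molm13 pair and -0.661 in the U937 pair. MRPL41 had 46.8 and 37.4 CPM in the OE libraries, against 209 and 102 CPM in the control libraries. MRPL12 had 69.6 and 51.4 CPM in the OE libraries and 257 and 129.8 CPM in the control libraries. MRPS34 had 52.7 and 40.1 CPM in the OE libraries and 239 and 82.3 CPM in the control libraries. In these 3 the Molm13 control library held the highest level by far. Oxidative phosphorylation genes encoded in the nucleus were negative in 74 of 77, with medians of -1.35 in the Molm13 pair and -0.51 in the U937 pair. ATP5MC1, a subunit of the rotor ring of ATP synthase, had 63.4 and 49.1 CPM in the OE libraries, against 366 and 133 CPM in the control libraries. NDUFAB1, an acyl carrier protein of complex I, had 82.6 and 67 CPM in the OE libraries and 329 and 178 CPM in the control libraries. The proteasome gave 37 negative of 38, with medians of -1.19 in the Molm13 pair and -0.638 in the U937 pair. PSMD2, a scaffold of the regulatory particle, had 21.9 and 22.3 CPM in the OE libraries, against 66.8 and 52.5 CPM in the control libraries. PSMB3, of the catalytic core, had 47.8 and 52.5 CPM in the OE libraries and 334 and 79.5 CPM in the control libraries. No member of these 3 lists passed with 4 libraries. With that control library left out, the counts that fell were 20 of 77, 9 of 77 and 7 of 38, beside 4.65% of all genes, and the medians were -0.584, -0.4 and -0.646.

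Messages with a terminal oligopyrimidine (TOP) start, a run of C and T that places an mRNA under control of mTOR and LARP1, were described by a list of 24 mRNAs known as TOP messages, ribosomal proteins set aside. All 24 listed mRNAs had a positive fold change, 14 had both OE libraries above both control libraries against 17.3% of all genes, and the medians were 1.23 in the Molm13 pair and 0.539 in the U937 pair; none passed the test. The 79 cytosolic ribosomal protein mRNAs had medians of 0.287 in the Molm13 pair and 0.129 in the U937 pair, with 55 positive. The starts of 4 leading genes are printed from RefSeq (GRCh38.p14) as the first 20 bases from the annotated start, with the run of pyrimidines in capitals: EEF1A1 at chr6:73521013-73521032 on the minus strand, EEF2 at chr19:3985444-3985463 on the minus strand, EIF2S3 at chrX:24054956-24054975 on the plus strand and EIF4A2 at chr3:186783577-186783596 on the plus strand. RPS23 is given for the substrate of OGFOD1, at chr5:82278335-82278354 on the minus strand, and VIM, at chr10:17228241-17228260 on the plus strand, as a member of the list without such a run.
EEF1A1: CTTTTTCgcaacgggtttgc
EEF2: CTCTTCCgccgtcgtcgccg
EIF2S3: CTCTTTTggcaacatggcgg
EIF4A2: CTTTTCagtcgggcgctgag
RPS23: CTCTTTCgctcaggcccgtg
VIM: gggaggcccacgtatggcgc

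A C at the annotated start followed by at least 4 bases of C or T was found in 11 of the 17 listed genes with a sequence (64.7%) and in 43 of 63 ribosomal protein genes (68.3%), against 4.04% of all 27305 starts. EEF1A1, the elongation factor that brings aminoacyl-tRNA to the ribosome, stood at 14370 and 19760 CPM in the OE libraries, against 3722 and 10480 CPM in the control libraries. EEF2, which moves the ribosome along, had 4313 and 6578 CPM in the OE libraries and 1346 and 2691 CPM in the control libraries. PABPC1, the poly(A)-binding protein, had 7892 and 11980 CPM in the OE libraries and 1817 and 6056 CPM in the control libraries. In all 3 genes both OE libraries lay above both control libraries, but U937 control lay closer to OE than Molm13 control did. EIF2S3, a subunit of initiation factor eIF2, had 833 and 1060 CPM in the OE libraries, against 213 and 607 CPM in the control libraries. EIF4A2, an RNA helicase of initiation, had 272 and 322 CPM in the OE libraries and 92.3 and 175 CPM in the control libraries. VIM, an intermediate filament protein, had 624 and 790.3 CPM in the OE libraries, against 270.5 and 187 CPM in the control libraries and, though without a run of pyrimidines at this start, was the 1 of 24 members that rose without the Molm13 control library (1.92 ± 0.36 (SE), adjusted p = 0.000279), beside 5.55% of all genes. The median of the list was then 0.38, and that of the ribosomal proteins -0.0179. Among ribosomal proteins RPS27 had 1114 and 1949 CPM in the OE libraries and 556 and 804 CPM in the control libraries. RPL3 had 5149 and 6876 CPM in the OE libraries and 2822 and 3959 CPM in the control libraries. RPL38 lay on the other side, with 361 and 420.2 CPM in the OE libraries, against 979.7 and 623 CPM in the control libraries.

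Genes of growth arrest and of the early stress response were higher in both pairs, more so in the U937 pair. Of 32 BTG, TOB, YPEL and arrestin-domain genes 28 had a positive fold change. Of the 32, 2 (BTG2 and YPEL3, above) rose, beside 0.0895% of all genes tested. At 10 CPM or more, 6 of 23 met the rule of size, beside 1.35% of all genes. The medians were 0.354 in the Molm13 pair and 0.694 in the U937 pair. This list was drawn up knowing that BTG2 stood out, so its count is no independent evidence. CCNG2, a cyclin of quiescent cells, had 58.3 and 53.9 CPM in the OE libraries, against 19.4 and 23.7 CPM in the control libraries. TXNIP, an arrestin-like regulator of glucose uptake, had 273 and 296 CPM in the OE libraries and 136 and 80.4 CPM in the control libraries. Neither group overlapped the other in these genes. CCNG1, a p53 target, was abundant at 979 and 1893 CPM in the OE libraries and 197 and 767 CPM in the control libraries. Of 23 immediate-early and AP-1 genes 21 were positive and 1 (JUN) rose, beside 0.0895% of all genes tested. Their medians were 0.563 in the Molm13 pair and 1.09 in the U937 pair. IER3, which is induced by NF-kB and p53, had 30.03 and 45 CPM in the OE libraries, against 16.2 and 9.43 CPM in the control libraries. ZFP36, which binds AU-rich elements to bring about mRNA decay, had 182 and 262 CPM in the OE libraries and 112 and 84.6 CPM in the control libraries, and its relative ZFP36L1 had 3.8 and 3.4 CPM in the OE libraries and 1.21 and 1 CPM in the control libraries. In the 3-library fit the medians of these lists were 0.78 and 0.989, beside 0.0573 over all genes.

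**Figure D4:**
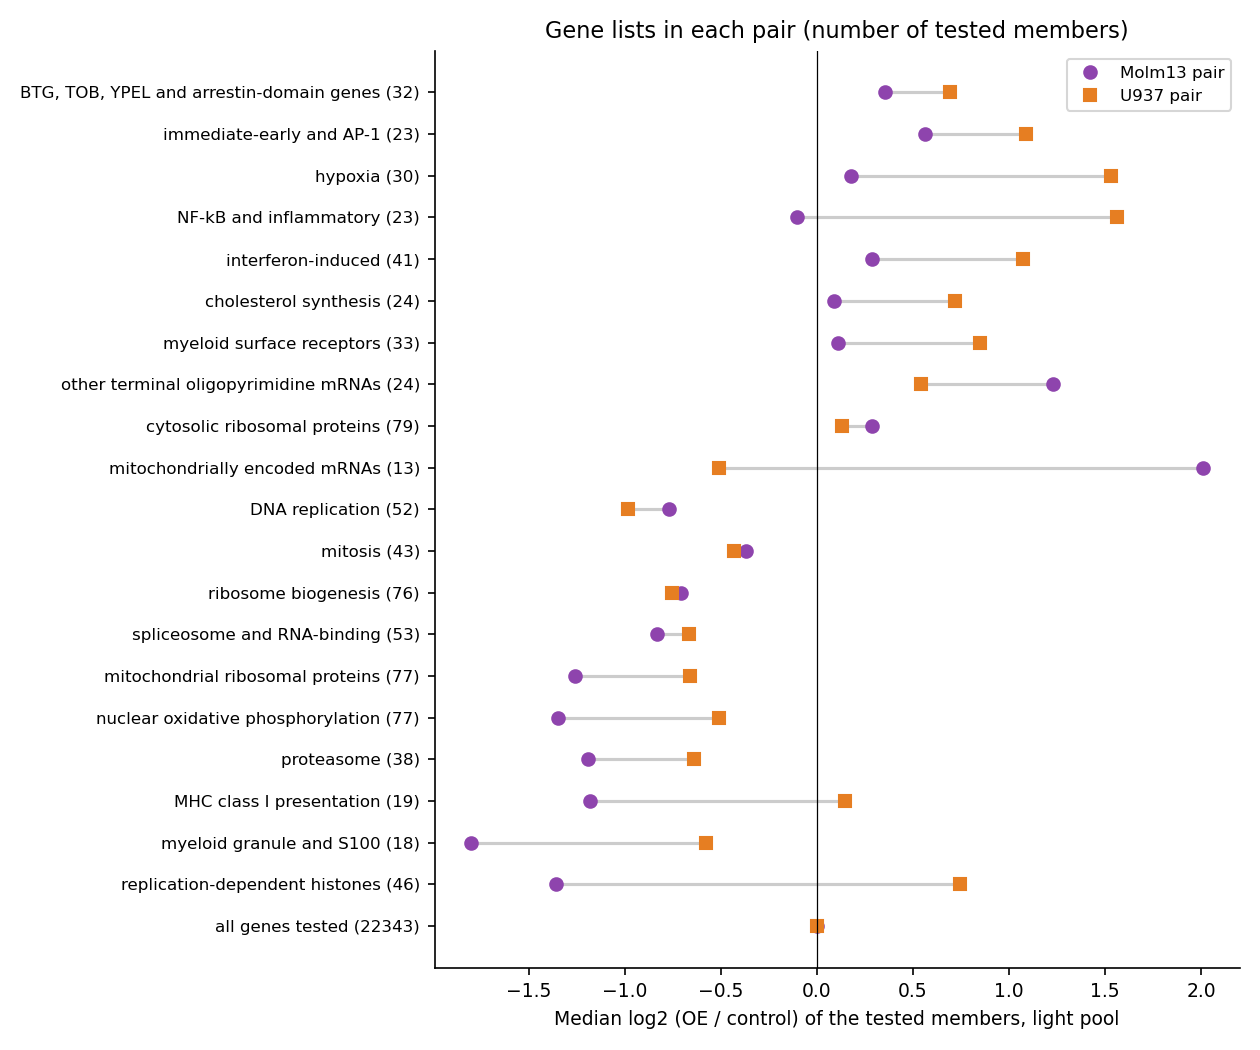
Median log2 ratio of OE to control in the light pool (horizontal axis) over the tested members of each gene list, for the Molm13 pair (circles) and the U937 pair (squares); the number of tested members stands in brackets. The lists from DNA replication to proteasome lie below 0 in both pairs, whereas mitochondrially encoded mRNAs (2.01 and -0.508) and replication-dependent histones (-1.36 and 0.746) lie on opposite sides.

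Genes of hypoxia, interferon and inflammation had larger median differences in the U937 pair than in the Molm13 pair, a contrast that was not tested. Hypoxia genes had medians of 0.176 in the Molm13 pair and 1.53 in the U937 pair, and 29 of 30 had a positive fold change with none passing. AK4, a mitochondrial adenylate kinase, differed by a like amount in both pairs (1.55 in the Molm13 pair and 1.85 in the U937 pair), at 46.7 and 27.7 CPM in the OE libraries, against 15.9 and 7.63 CPM in the control libraries. P4HA1, a collagen prolyl hydroxylase that is a 2-oxoglutarate oxygenase like OGFOD1, had 165 and 135 CPM in the OE libraries, against 84.8 and 23.4 CPM in the control libraries. ADM, the precursor of adrenomedullin, had 14.2 and 12.4 CPM in the OE libraries and 16.1 and 0.382 CPM in the control libraries. ENO2, a glycolytic enolase, had 14.8 and 24.7 CPM in the OE libraries and 12.2 and 1.18 CPM in the control libraries. For ADM and ENO2, 3 of the 4 libraries were alike and U937 control alone was low. U937 control was also the lowest library for IFIT2, an interferon-induced inhibitor of translation, at 11.6 and 17.8 CPM in the OE libraries and 6.76 and 1.62 CPM in the control libraries, and for GBP2, a guanylate-binding protein, at 15.8 and 12.3 CPM in the OE libraries and 8.94 and 1.49 CPM in the control libraries. CCL5, a chemokine, had 595 and 732 CPM in the OE libraries and 640.3 and 70 CPM in the control libraries. The medians were 0.287 in the Molm13 pair and 1.07 in the U937 pair for interferon-induced genes and -0.106 in the Molm13 pair and 1.56 in the U937 pair for NF-kB and inflammatory genes. Without the Molm13 control library, that is against U937 control alone, 18 of 30 hypoxia, 14 of 42 interferon-induced and 12 of 23 NF-kB genes rose and none fell, beside 5.55% of all genes that rose. Leaving out U937 control light instead turned the NF-kB median to -0.0304, and leaving out U937 OE light turned it to -0.0149.

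Cholesterol synthesis genes were positive in 16 of 24 members, with medians of 0.0886 in the Molm13 pair and 0.717 in the U937 pair. STARD4, which carries sterols between membranes, had 93.4 and 76.1 CPM in the OE libraries, against 34 and 34 CPM in the control libraries. CYP51A1, which demethylates lanosterol, had 171 and 107 CPM in the OE libraries and 66.6 and 60.2 CPM in the control libraries. MSMO1, the next oxidase of the path, had 104 and 97.4 CPM in the OE libraries and 60.04 and 33.7 CPM in the control libraries. None passed with 4 libraries, and the median without the Molm13 control library was 0.893, beside 0.0573 over all genes. Leaving out U937 control light, with all other libraries in the fit, turned the median of the list to -0.111. The median of the Molm13 pair, which does not include that library, was 0.0886.

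With all 4 libraries, myeloid differentiation genes split by kind. The granule and S100 list was lower, with 15 of 18 members negative and medians of -1.8 in the Molm13 pair and -0.578 in the U937 pair. Of its members 1 (S100A8) fell, beside 0.0179% of all genes tested. PRTN3 (proteinase 3) was the most abundant of those named, at 1844 and 876 CPM in the OE libraries, against 7498 and 2363 CPM in the control libraries. ELANE (neutrophil elastase) had 303 and 180 CPM in the OE libraries and 1687 and 412 CPM in the control libraries. Both encode serine proteases of the granules. MPO, myeloperoxidase, had 6.53 and 15.8 CPM in the OE libraries and 17.2 and 35.3 CPM in the control libraries. S100A9, the partner of S100A8, had 1.86 and 0.584 CPM in the OE libraries and 8.57 and 1.6 CPM in the control libraries. For all 4 genes both pairs were lower in OE, but for PRTN3, ELANE and S100A9 the Molm13 OE level lay near or above that of the U937 control. In the 3-library fit MPO gave -1.66 ± 0.34 (SE), and the list had a median of -0.363. S100A10 and CST7, also listed, gave -0.85 and -0.81 in the Molm13 pair and 1.18 and 0.97 in the U937 pair. In the U937 pair alone 4 of 15 members at 10 CPM or more were at least 1 higher and 3 at least 1 lower. Among all genes those shares were 7.31% and 7.98%. Surface receptors were positive in 26 of 33 with medians of 0.107 in the Molm13 pair and 0.847 in the U937 pair. ITGAM, the alpha chain of the complement receptor Mac-1, had 55.2 and 51 CPM in the OE libraries, against 22.2 and 13.6 CPM in the control libraries. CD93, of the C-type lectin family, had 18.5 and 28.9 CPM in the OE libraries and 7.54 and 12.4 CPM in the control libraries. In both the OE libraries were the higher ones. KIT, the stem cell factor receptor, had 2.52 and 2.15 CPM in the OE libraries, against 0.458 and 0.729 CPM in the control libraries. FCGR2B, the inhibitory Fc receptor, had 17.2 and 15.3 CPM in the OE libraries and 19.6 and 0.546 CPM in the control libraries, again with U937 control alone low. In the 3-library fit the median of the receptors was 0.789, while leaving out U937 control light turned it to -0.0164.

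In many genes the 2 pairs did not move together. Across the 9044 genes at 10 CPM or more the pair differences had a Pearson correlation of 0.208 and the same sign in 58%; their SD was 0.88 in the Molm13 pair and 0.758 in the U937 pair. The 2 OE libraries differed from each other with an SD of 0.36, and the 2 control libraries with an SD of 0.972. The control libraries thus differed from each other more than the OE libraries did. The Molm13 pair difference correlated across these genes at 0.797 with the light minus heavy difference of U937 OE, a comparison that shares no library with it. The U937 pair difference correlated at -0.012 with the light minus heavy difference of Molm13 OE. These correlations are over genes, which are not independent replicates.

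Mitochondrially encoded mRNAs show the gap most plainly. MT-CO1, a subunit of cytochrome c oxidase, had 11090 and 14070 CPM in the OE libraries, against 1859 and 13390 CPM in the control libraries. MT-CO3 had 10730 and 13920 CPM in the OE libraries and 2146 and 18310 CPM in the control libraries. Their differences were 2.58 in the Molm13 pair and 0.07 in the U937 pair for MT-CO1, and 2.32 in the Molm13 pair and -0.40 in the U937 pair for MT-CO3. All 13 of these mRNAs were at least 1 log2 unit higher in OE in the Molm13 pair alone and 0 in the U937 pair alone. Coding length moved with the Molm13 pair as well. Genes of 1 to 450 coding bases had a median difference of -0.69 in the Molm13 pair and -0.263 in the U937 pair, and genes over 3000 coding bases had 0.191 in the Molm13 pair and -0.305 in the U937 pair. In the Molm13 pair the medians climb from the shortest to the longest of the 5 classes, and in the U937 pair they do not.

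**Figure D5:**
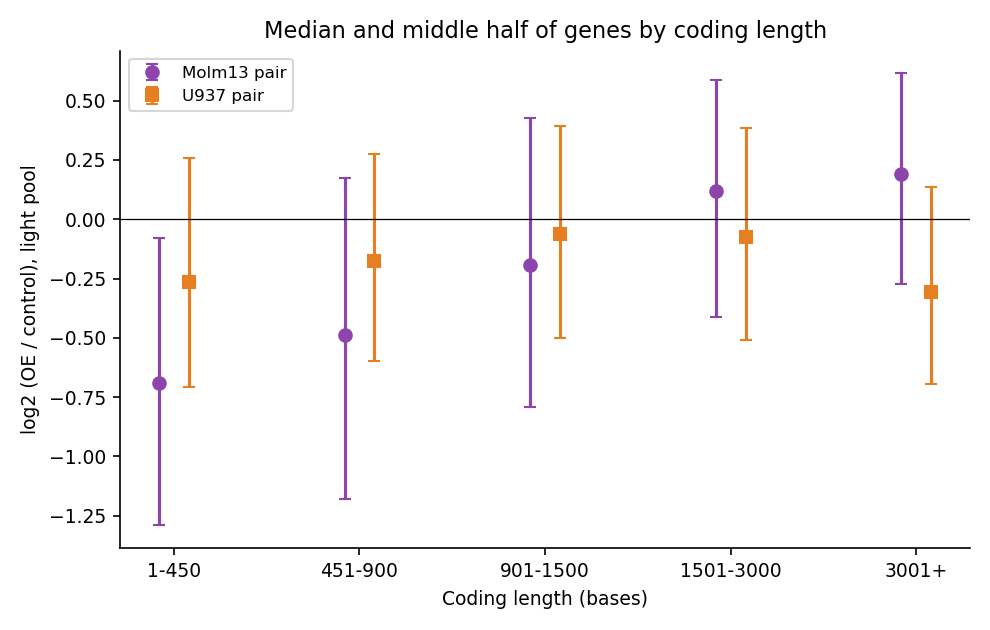
Log2 ratio of OE to control in the light pool (vertical axis) by coding length in bases (horizontal axis, 5 classes of 661 to 2238 protein-coding genes at 10 CPM or more), for the Molm13 pair (circles) and the U937 pair (squares); points are medians and bars span the interquartile range of the genes. The Molm13 medians go from -0.69 in the shortest class to 0.191 in the longest, and the U937 medians stay between -0.305 and -0.0639.

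Genes that differed strongly in 1 pair and by less than 0.5 log2 units in the other follow the same lines. In the Molm13 pair CYBA, a subunit of the phagocyte NADPH oxidase, had 106 and 113 CPM in the OE libraries, against 1312 and 103 CPM in the control libraries. IL32, a cytokine, had 10.2 and 8.68 CPM in the OE libraries and 66.3 and 11.9 CPM in the control libraries: 3 libraries were alike and Molm13 control was high. In the next pair of genes that library was low. ITGAV, an integrin alpha chain, had 18.4 and 15.6 CPM in the OE libraries, against 3.3 and 12.5 CPM in the control libraries. SOCS5, a suppressor of cytokine signalling, had 28.9 and 26.7 CPM in the OE libraries and 5.98 and 22.6 CPM in the control libraries. WDR5B, SNX32, ETFB and ENO3 fall in this class too. In the annotation WDR5B, SNX32 and ENO3 overlap FAM162A, CFL1 and PFN1, and ETFB overlaps unnamed genes, so reads may be shared. In the U937 pair MS4A3, a membrane protein of granulocyte precursors, had 37.9 and 13.1 CPM in the OE libraries, against 27.3 and 105 CPM in the control libraries. HELLS, a chromatin remodeller of dividing cells, had 17.8 and 6.95 CPM in the OE libraries and 17.6 and 35.6 CPM in the control libraries. YWHAG, a 14-3-3 protein, had 104 and 65.4 CPM in the OE libraries, against 93.8 and 292 CPM in the control libraries. SMC1A, a subunit of cohesin, had 28.4 and 19.2 CPM in the OE libraries and 40.04 and 81.3 CPM in the control libraries. On the higher side CCL3L3, a chemokine, had 20.8 and 52 CPM in the OE libraries, against 22.6 and 3.41 CPM in the control libraries; it has near-identical copies whose reads may be divided among them. In MS4A3, HELLS, YWHAG and SMC1A the U937 control library held the highest level.

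Without the Molm13 pair, the U937 pair alone had 641 of 8763 genes at least 1 log2 unit higher in OE (7.31%) and 699 at least 1 lower (7.98%), a description of 2 libraries with no test. The Molm13 pair alone had 719 of 9182 higher (7.83%) and 1757 lower (19.1%). In the U937 pair alone 21 of 46 replication genes, 18 of 71 ribosome biogenesis genes and 15 of 51 splicing genes were at least 1 lower. For nuclear oxidative phosphorylation genes the same count was 10 of 77 in the U937 pair, against 56 of 77 in the Molm13 pair, and for the proteasome 4 of 38 against 25 of 38. For hypoxia genes it was the higher side that differed, with 15 of 25 in the U937 pair and 2 of 27 in the Molm13 pair. With 3 libraries, both OE against U937 control, 1341 of 24171 genes rose (5.55%) and 1125 fell (4.65%); here the spread comes from the 2 OE libraries, the lone control is assumed to vary as they do, and line label and genotype are not balanced.

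Whether the OE difference depended on the pool was asked of all 8 libraries in 1 fit. Of 24289 genes, 0 passed for the difference of the light and heavy OE effects (0.0%) by edgeR's quasi-likelihood test, with 1431 at an unadjusted p under 0.05 and a smallest adjusted p of 0.791; limma voom gave 0 and DESeq2 gave 4. Of the fits with a library left out, the count rose most without U937 control light. That fit held Molm13 control light, close in composition to the heavy pools, as its only light control. Its count is therefore not read as an effect of the pool. Values of both pools can therefore be set side by side only. The heavy values below come from the 8-library fit and the light ones from the 4-library fit. In the 8-library fit the light values were -1.67 for OGFOD1, 2.63 for BTG2 and -2.77 for DYNC1I1. OGFOD1 had a log2 fold change of -1.52 in the heavy pools, beside -1.59 in the light ones. BTG2 had 2.33 beside 2.65, and DYNC1I1 -3.57 beside -2.77. The replication list had a median of -0.924 in the heavy pools, beside -0.918 in the light ones. The TOP mRNAs outside the ribosomal proteins had -0.499 beside 0.823, and hypoxia genes 1.46 beside 0.869.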

How the data were processed

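RNA of 2 pools from sucrose gradients was sequenced in 8 libraries with a Smart-seq kit, per the labels' protocols. As deposited by the authors, a single table gives unnormalised read counts for 78932 gene IDs. The submitters' processing notes name GRCh38, STAR, featureCounts and cutadapt; no version, annotation release or use of strand is recorded in those notes. Reads in overlapping or antisense genes and near-identical copies therefore cannot be told apart. Symbols were found for 61481 IDs, and positions and types for 57356 IDs in GENCODE release 29; promoters are RefSeq's.

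The 4 light libraries were tested with the quasi-likelihood method of edgeR (version 4.0.16 in R 4.3.3; TMM scaling, filterByExpr, line label as a term, Benjamini-Hochberg adjustment over all genes tested), which is the source of every adjusted p unless another tool is named. The fit left 1 residual degree of freedom and an infinite prior, so genes of like abundance share a spread. Pairs of OE and control come from the same line label; across 9044 genes the deviations of same-line libraries from their group means correlated at 0.071. Pair differences are log2 CPM with a prior count of 2. Levels per gene are not divided by length. The 3-library fit without Molm13 control light (no line term) was chosen after seeing the data. Alternatives used limma 3.58.1 (voom) and DESeq2 1.42.0, other scalings, filters and libraries left out. The edgeR scripts were tested on simulated data.

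Members and gene lists were chosen with earlier results of these data known. Named genes are OGFOD1, RPS23, the called genes, those of largest smaller pair difference, those large in 1 pair, those of opposite sign, and, within each list, members of smallest p. List counts and medians carry no test. One result that these rules select is not reported here.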

Additional observations from a re-analysis of the deposited data

Results flagged for a closer look

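Some genes differed between OE and control in opposite directions in the Molm13 and U937 pairs. Among 9044 genes at a mean of 10 CPM or more, 14 were at least 1 log2 unit higher in OE in the Molm13 pair and at least 1 lower in the U937 pair, and 82 ran the other way. With 1 library per group and line label, the difference between the pairs was not tested. The 12 genes named below, 6 for each orientation, are those with the largest smaller difference.

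Of the genes higher in OE in the Molm13 pair, TFRC, the transferrin receptor, had 272 and 191 CPM in the OE libraries, against 111 and 465 CPM in the control libraries, or 1.29 in the Molm13 pair and -1.29 in the U937 pair. IL7R, the interleukin-7 receptor, had 20.9 and 7.37 CPM in the OE libraries, against 5.57 and 18.2 CPM in the control libraries, or 1.90 in the Molm13 pair and -1.30 in the U937 pair. FLVCR1, a haem and choline transporter, had 21.6 and 18.3 CPM in the OE libraries, against 9.15 and 41.6 CPM in the control libraries, or 1.23 in the Molm13 pair and -1.18 in the U937 pair. In TFRC and FLVCR1 the OE libraries lay between the control libraries, with U937 control the highest; in IL7R the Molm13 OE library was the highest of all. THUMPD1, an adaptor of tRNA acetylation, had 29.5 and 17.9 CPM in the OE libraries, against 13.8 and 37.4 CPM in the control libraries, or 1.09 in the Molm13 pair and -1.06 in the U937 pair. RBBP9, a serine hydrolase, had 15.7 and 8.19 CPM in the OE libraries, against 7.32 and 20 CPM in the control libraries, or 1.10 in the Molm13 pair and -1.28 in the U937 pair. GEN1, a Holliday junction resolvase whose gene overlaps SMC6, had 25.8 and 16.8 CPM in the OE libraries, against 11.9 and 41.5 CPM in the control libraries. Its differences were 1.11 in the Molm13 pair and -1.30 in the U937 pair.

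Of the genes lower in OE in the Molm13 pair, LSP1, an actin-binding protein of leukocytes, had 77.5 and 74.9 CPM in the OE libraries, against 321 and 18 CPM in the control libraries, or -2.05 in the Molm13 pair and 2.06 in the U937 pair. IFI6, an interferon-induced protein, had 6.55 and 6.08 CPM in the OE libraries, against 27.3 and 1.04 CPM in the control libraries, or -2.05 in the Molm13 pair and 2.51 in the U937 pair. H1-2, a linker histone, had 11.5 and 16.7 CPM in the OE libraries, against 44.8 and 3.92 CPM in the control libraries, or -1.96 in the Molm13 pair and 2.08 in the U937 pair. Here Molm13 control was the highest library and U937 control the lowest. LGALS1, galectin-1, had 674 and 838 CPM in the OE libraries, against 2649 and 228 CPM in the control libraries, or -1.97 in the Molm13 pair and 1.88 in the U937 pair. BLVRB, biliverdin reductase B, had 19.1 and 25.9 CPM in the OE libraries, against 77.7 and 7.32 CPM in the control libraries, or -2.02 in the Molm13 pair and 1.82 in the U937 pair. CD82, a tetraspanin, had 60.6 and 55.1 CPM in the OE libraries, against 191 and 14.4 CPM in the control libraries, or -1.65 in the Molm13 pair and 1.94 in the U937 pair. In each of the 12 genes except IL7R, both OE libraries lay between the control libraries. The Molm13 control library, whose mitochondrial share is given above, differed in composition from the other light libraries. The part of this in the differences between the pairs was not tested.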

How the results depend on the processing

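The number of genes that passed changed most with the libraries used. It was 24 in the 4-library fit, 11 with no filter on low counts, 63 with DESeq2, 0 without the line label as a replicate block (2065 at an unadjusted p under 0.05), 0 with all 8 libraries in the fit (3604 at an unadjusted p under 0.05) and 2466 in the 3-library fit; leaving out 1 light library at a time gave 0 to 1926, with 854 without Molm13 control light. RLE scaling gave 24, upper-quartile scaling 34, scaling on protein-coding nuclear genes 34, limma voom 18 and a minimum of 10 CPM 22. Upper-quartile scaling put the median of all genes at 0.116, against 0.0149 with TMM, and 31 of its 34 calls were higher in OE, against 20 of 24. All 24 genes kept their sign in these fits wherever they were tested (9 of 9 at the 10 CPM minimum). OGFOD1 stayed lower in OE throughout, at -1.84 in the 3-library fit and between -2.23 and -0.92 when libraries or pairs were left out. It passed only without Molm13 control light, also with the heavy libraries in the fit (-2.16).

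By the rule of size, 122 genes were higher in both pairs, against 347 at 1 CPM and 47 at 50 CPM, and 234 were lower, against 379 at 1 CPM and 104 at 50 CPM. Scaling on protein-coding nuclear genes gave 185 higher and 193 lower, and upper-quartile scaling 163 higher and 164 lower, so the excess of lower genes rests on the scaling. A single pair gave 641 to 719 higher and 699 to 1757 lower. The U937 pair alone had 1340 genes past the size, 3243 at 1 CPM and 437 at 50 CPM; the Molm13 pair alone had 2476, 4233 and 1114. The difference between light and heavy pools gave 0 calls, 4 with DESeq2, and 0 to 1371 with a library left out, the 1371 without U937 control light. Where counts moved, the cause was not tested. With 1 library per line and group, 1 residual degree of freedom limits every call.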

Other observations

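Other gene lists described the same 4 libraries with no test. Replication-dependent histone mRNAs, most of which lack a poly(A) tail, had median differences of -1.36 in the Molm13 pair and 0.746 in the U937 pair over 46 members. Host genes of small nucleolar RNAs, whose spliced RNAs are largely decayed when translated, had 0.474 in the Molm13 pair and -0.473 in the U937 pair over 24 members. The 7 genes of the phagocyte NADPH oxidase had -0.888 in the Molm13 pair and 0.667 in the U937 pair. The MHC class I presentation list, which covers antigen processing, had -1.18 in the Molm13 pair and 0.145 in the U937 pair over 19 genes. In each of these lists the pairs lay on opposite sides of 0. In the 3-library fit without Molm13 control light, the medians were 0.633 for the histones, -0.633 for the host genes, 0.32 for the NADPH oxidase and 0.21 for MHC class I presentation.

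The 45 tested 2-oxoglutarate oxygenases, the enzyme class of OGFOD1, had medians of -0.166 in the Molm13 pair and -0.0438 in the U937 pair, with 21 positive, 24 negative and none passing. Upper-quartile scaling put the median of that list at 0.00426, against -0.0967 with TMM, and the 3-library fit put it at 0.0554.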
